A study of Homo sapiens with 5 samples.

Results

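Ribosome biogenesis factors and subunits of RNA polymerase I were examined in MDA-MB-231 cells, a human breast cancer line, after exposure to SAHA (vorinostat), an inhibitor of histone deacetylases. The set lists 45 genes by symbol: polymerase subunits, proteins of small nucleolar ribonucleoproteins (snoRNPs), abundant nucleolar proteins, and assembly factors of both ribosomal subunits. Of these, 40 were measured by a probe set annotated to that gene alone, among 19775 genes tested. NOP56, DKC1 and BOP1 had only probe sets annotated to several genes, mostly small RNAs encoded within them, and DDX18 and GNL3 had no probe set in the annotation used here. Where a gene had several probe sets, the one with the highest mean over all arrays stood for it.

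The study profiled total RNA on 5 single-colour oligonucleotide arrays. On 3 arrays the cells had received the vehicle DMSO (DMSO 1, DMSO 2 and DMSO 3), and on 2 arrays 2 uM SAHA (SAHA 1 and SAHA 2), in both cases for 30 h per the labels. All arrays are of 1 cell line, and its extraction notes mention a transfection that no other label describes. Values are log2 of the deposited intensities, and a difference of 1 is a 2-fold change. Nothing states that the replicates are separate cultures, so the p-values describe array-to-array spread, part or all of which could be technical, and the number of arrays limits the precision.

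Ribosomes are built in the nucleolus. RNA polymerase I transcribes the ribosomal DNA repeats into a long precursor, snoRNPs guide its methylation and pseudouridylation, and a large set of processing factors cleaves and folds it into the 40S and 60S subunits while ribosomal proteins join. In proliferating cells these genes are well known targets of the transcription factor MYC, which with MAX binds the E-box sequence CACGTG. The genes are expressed in nearly all dividing cells, and bulk arrays cannot tell fewer expressing cells from less RNA per cell.

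After SAHA 8 of the 40 measured members were lower and 1 was higher (limma, Benjamini-Hochberg adjusted p under 0.05 over all genes), and 31 were not called. The shares, 20% lower and 2.5% higher, stand against 15.6% and 14% of all genes tested, or 29.6% called either way. The members' share of lower calls is thus close to this background, and their share of higher calls is below it. That background includes dim genes, and all members lay above the median gene. Without genes under the 40th percentile of mean level, 9 of 40 members and 3175 of 11865 genes were lower. In that setting 5 members and 2721 genes were higher, so both shares of the members were below those of all genes kept. The median log2 fold of the members was -0.06, against -0.03 for all genes. The lower genes were UTP20, NCL, NOB1, IMP4, UTP4, NOP2, NHP2 and GAR1, and the higher one was POLR1A. Between 4 and 6 members were called lower and 0 to 3 higher when each array was left out in turn. The lower count was 4 without DMSO 3, SAHA 1 or SAHA 2.

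Both SAHA arrays lay below all DMSO arrays for 14 members and above all of them for 6, and the groups overlapped for 20. Of all genes tested, 26% had both SAHA arrays below and 22.1% had both above, beside 35% and 15% of the members. The groups were apart for 48.1% of all genes, a share like the members' 20 of 40. The lowest mean level of any member, that of RRP9, was 7.75. That is above the median gene of every array (7.55 to 7.56). Markers of a mesenchymal breast cancer line were present, with VIM between 13.83 and 14.03 and AXL between 13.57 and 14.00. PGR lay between 4.41 and 4.62 and the leukocyte marker PTPRC between 3.41 and 3.87. The endothelial marker CDH5 (3.88 to 4.04) and the adipocyte marker ADIPOQ (2.95 to 3.15) were low too. Others on these lists were brighter: ESR1 (6.97 to 7.04) and ERBB2 (8.29 to 9.14), listed as absent in this line, leukocyte CD3E (6.81 to 7.07) and endothelial PECAM1 (7.41 to 7.67). SPARC, listed as a mesenchymal marker, was dim (6.13 to 6.16), and EPCAM, listed as absent in this line, was not dim (9.44 to 10.42). Of the breast line markers, CDH1 (1.64) and FN1 (0.41) rose and EPCAM (-0.72), ERBB2 (-0.64) and AXL (-0.33) fell on the log2 scale (limma adjusted p = 0.00259, 0.00617, 0.0102, 0.0125 and 0.0193). DMSO 1 stood apart at the 5′ end of the actin control, at 11.22 against 12.43 and 12.20 on the other DMSO arrays and 12.47 and 12.56 in SAHA. The 3′ actin probe set lay between 14.42 and 14.63 on all arrays. DMSO 1 was also the lowest array on hybridization controls, such as BioB at its 3′ end (8.82, other arrays 8.94 to 9.29). It was lowest at the 5′ end of the polyadenylated control DapX (8.59, others 9.11 to 9.55). At the 3′ end of DapX it was not (13.14, others 13.08 to 13.38). Without DMSO 1, 6 members were called lower and 2 higher, beside 2353 and 2075 of 19775 genes. The part of these markers and controls in the members' values was otherwise not tested.

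**Figure D1:**
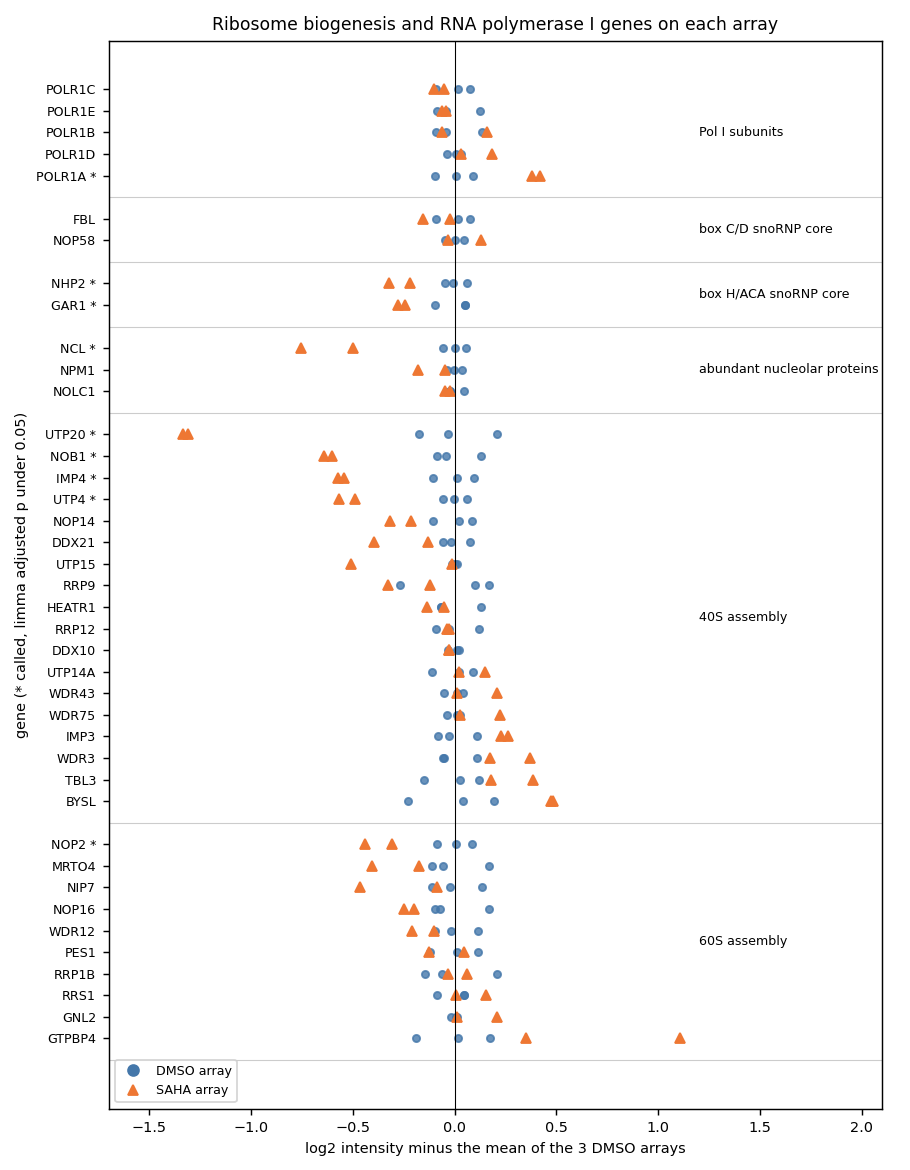
Log2 intensity of the 40 measured members on each array, minus the mean of the 3 DMSO arrays, grouped by role; circles are DMSO arrays, triangles SAHA arrays, and a star marks genes called by limma at adjusted p under 0.05. Both SAHA arrays of UTP20 lie more than 1 unit below its DMSO mean, while most genes stay within the spread of the DMSO arrays or close to it.

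Promoters of 5 members are printed here because they carry the E-box close to their start sites, in genes that were called lower and in genes that were not. The stretches run from 120 bases before to 30 bases after the RefSeq start site (GRCh38.p14), 5′ to 3′ on the gene's strand, with the E-box in capitals. UTP20 (chr12:101279985-101280134, plus strand), UTP4 (chr16:69132529-69132678, plus strand) and IMP4 (chr2:130342777-130342926, plus strand) were called lower. GNL2 (chr1:37595908-37596057, minus strand) and WDR43 (chr2:28894547-28894696, plus strand) were not called.
UTP20: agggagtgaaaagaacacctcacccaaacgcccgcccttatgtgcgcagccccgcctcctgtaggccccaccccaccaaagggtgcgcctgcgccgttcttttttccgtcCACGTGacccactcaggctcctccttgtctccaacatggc
UTP4: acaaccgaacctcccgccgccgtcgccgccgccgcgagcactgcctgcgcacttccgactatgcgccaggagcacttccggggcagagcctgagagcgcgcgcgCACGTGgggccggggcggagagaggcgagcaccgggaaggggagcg
IMP4: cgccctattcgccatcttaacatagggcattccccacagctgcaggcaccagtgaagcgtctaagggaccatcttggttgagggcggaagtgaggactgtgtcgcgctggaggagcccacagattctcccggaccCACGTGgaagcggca
GNL2: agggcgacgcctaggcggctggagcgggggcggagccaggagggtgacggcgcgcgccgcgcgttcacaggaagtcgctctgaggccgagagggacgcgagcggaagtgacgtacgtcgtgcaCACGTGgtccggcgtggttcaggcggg
WDR43: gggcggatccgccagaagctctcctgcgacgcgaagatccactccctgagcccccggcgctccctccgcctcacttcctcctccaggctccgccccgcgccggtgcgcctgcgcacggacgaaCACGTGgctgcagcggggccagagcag

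Promoter windows of 300 bases (250 before and 50 after a start site) were available for 34 of the 40 measured members. Some genes had more than 1 start site, and an E-box lay in a window of 15 of the 34 genes (44.1%), against 10.9% of the 15384 tested genes with a window. Median GC content was alike, 62.2% for the members and 62.7% for tested genes. Matches were counted on both strands, and no E-box in these members' windows shared bases with another searched motif. Of the 16 E-box matches, 14 (87.5%) began within 50 bases of the start site, against 37.4% of matches over all tested genes. The exceptions began at -203 in IMP4, which had a second match at 16, and at -241 in UTP14A. By call, 5 of the 8 lower members (UTP20, UTP4, IMP4, NOP2 and GAR1) and 10 of 25 uncalled members with a window had the motif. These shares are descriptions, as a match is not a binding site.

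The other 4 motifs searched, also on both strands, gave these shares. CCGGAAG, an ETS site, was in windows of 11 of the 34 members (32.4%, tested genes 16.6%). The GC box GGGCGG was in 25 (73.5%, tested genes 64.6%) and TCGCGA in 6 (17.6%, tested genes 5.33%). GCATGCG, part of the NRF1 site, was in 2 (5.88%, tested genes 6.18%). E-boxes were in 28 of 105 other ribosome assembly factors (26.7%) and in 3 of 47 ribosomal protein genes (6.38%).

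**Figure D2:**
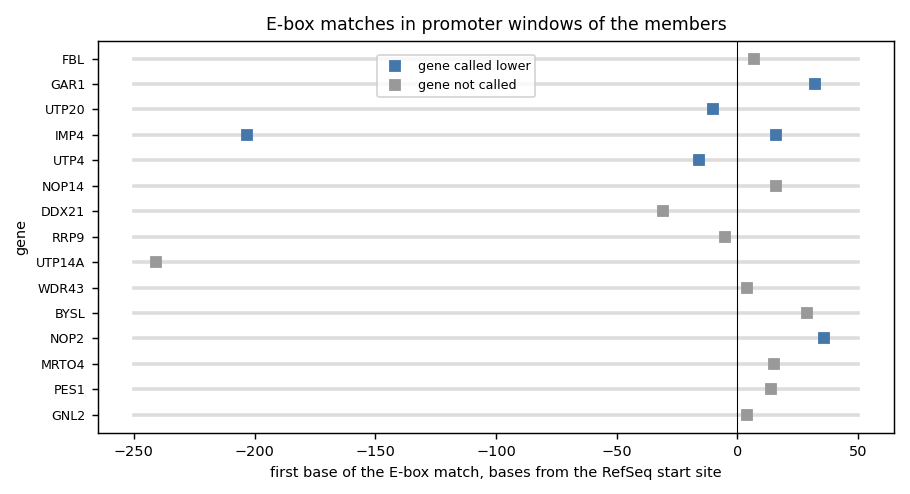
Position of each E-box match in the promoter windows of the 15 members that have one, in bases from the RefSeq start site; grey lines span the window, blue squares are genes called lower after SAHA and grey squares genes not called. All but 2 of the 16 matches begin within 50 bases of the start site, in called and uncalled genes alike.

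For RNA polymerase I, 1 of the 5 measured subunits was called higher and 0 lower, and their median log2 fold was 0.05. None was lower at an unadjusted p under 0.05 in limma or called by the unmoderated test. With 15.6% of all genes lower and 14% higher, counts of 0 and 1 among 5 genes say little. With probe sets averaged 1 was lower, POLR1E at -0.45 (limma adjusted p = 0.0405), and 0 higher, beside 3074 and 2971 of 19775 genes. On the polyadenylated controls 3 were lower and 0 higher, beside 14548 and 1361 of 19775 genes. POLR1A, the largest catalytic subunit, was at 8.43, 8.24 and 8.34 on DMSO 1 to 3 and at 8.72 and 8.76 on SAHA 1 and 2. Both SAHA arrays were above all DMSO arrays for this probe set, with a log2 fold of 0.40 ± 0.07 (SE) and a limma adjusted p of 0.0136. Its direction is nevertheless not settled by these arrays, because a second POLR1A probe set went the other way: 7.85, 8.04 and 7.97 in DMSO and 7.55 and 7.51 in SAHA, a log2 fold of -0.42 ± 0.07 (SE; adjusted p = 0.0171 in a limma fit over all probe sets). The third gave -0.18 in that fit (adjusted p = 0.0784), and the mean of the 3 probe sets gave -0.07 (0.267). The call of the brightest probe set also ended without DMSO 3 (adjusted p = 0.0646), SAHA 1 (0.081) or SAHA 2 (0.0844), and centred on the polyadenylated control RNAs (0.03 on the log2 scale).

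The other subunits stayed near their DMSO level on their brightest probe set. POLR1B, the second catalytic subunit, had a log2 fold of 0.05 ± 0.10 (SE), with arrays at 10.10, 9.93 and 9.88 in DMSO and 10.13 and 9.91 in SAHA. POLR1C and POLR1D, which polymerases I and III share, gave -0.08 and 0.11, and POLR1E, part of a subcomplex that acts in initiation and elongation, gave -0.05. POLR1D ran at 12.18, 12.11 and 12.15 in DMSO and 12.18 and 12.33 in SAHA. A dimmer probe set of POLR1E was called lower (-0.38, adjusted p = 0.0447) and one of POLR1B higher (0.36, adjusted p = 0.0261).

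Of the box C/D core proteins, which carry out and scaffold ribose methylation, FBL and NOP58 were measured and neither was called. FBL, the methyltransferase itself, was at 12.84, 12.67 and 12.78 in DMSO and 12.61 and 12.74 in SAHA. Its log2 fold of -0.09 had a 95% interval of -0.28 to 0.11. NOP58 gave 0.05 with an interval of -0.13 to 0.22. Neither passed even an unadjusted p under 0.05 (0 of 2), and neither was called by the unmoderated test. SNU13, another core protein, gave 0.08 (limma adjusted p = 0.306). NOP56 was not measured by a probe set of its own. With host-gene probe sets read as the gene, 1 of 3 box C/D members was called lower, beside 3130 of 19872 genes. On the polyadenylated controls FBL and NOP58 were both called lower, beside 14548 of 19775 genes.

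Of the box H/ACA core proteins, whose complexes convert uridine to pseudouridine, NHP2 and GAR1 were slightly lower and NOP10 was not called. NHP2 was at 12.76, 12.80 and 12.87 in DMSO and 12.48 and 12.59 in SAHA, a log2 fold of -0.27 ± 0.06 (SE; adjusted p by limma = 0.0262). GAR1 was at 10.05, 10.20 and 10.20 in DMSO and 9.91 and 9.88 in SAHA, a log2 fold of -0.26 ± 0.06 (SE; adjusted p = 0.0395). For each, both SAHA arrays lay below all DMSO arrays, but the gap was small. The NHP2 call ended without any 1 of the 5 arrays (adjusted p = 0.0506 to 0.103) and that of GAR1 without any array but DMSO 1 (0.124 to 0.149). NOP10, the small core protein of the same particle, gave 0.01 (adjusted p = 0.942). DKC1 had no probe set of its own. It was called lower when host-gene probe sets were read as the gene, beside 3130 of 19872 genes.

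Among the abundant nucleolar proteins NCL fell and the others were not called. NCL, nucleolin, binds nascent ribosomal RNA. It was at 12.08, 12.19 and 12.13 in DMSO and 11.64 and 11.38 in SAHA, a log2 fold of -0.63 ± 0.09 (SE) and a 1.54-fold drop (limma adjusted p = 0.00851). The call was narrowly lost without DMSO 3 (0.0515). It rests on 1 probe set of shared-sequence type, and the other NCL probe set was dim (5.53 to 5.67) and gave -0.08.

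NPM1, nucleophosmin, a histone and ribosome chaperone, differed between its probe sets. Its brightest probe set was at 14.28, 14.24 and 14.21 in DMSO and 14.19 and 14.06 in SAHA, a log2 fold of -0.11 (limma adjusted p = 0.236). Its 2 other probe sets were both called lower in the fit over all probe sets, at -0.55 (adjusted p = 0.00814) and -0.39 (0.0104). All 3 NPM1 probe sets are of shared-sequence type. NOLC1, a phosphoprotein that binds snoRNPs, was the least changed of the 3, with all arrays between 11.72 and 11.81.

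Factors of the small subunit processome and of 40S maturation gave 4 of the 8 lower calls and 18 of the 40 measured members. Of the 18, 4 fell (22.2%, all genes 15.6%) and 0 rose (all genes 14%), with a median of -0.06. At an unadjusted p under 0.05 in limma 6 were lower and 3 higher. UTP20, a very large scaffold protein of the processome, was at 9.51, 9.65 and 9.89 in DMSO and 8.37 and 8.34 in SAHA. This was the lowest fold among the members, -1.32 ± 0.12 (SE), a 2.5-fold drop (adjusted p = 0.00242). The SAHA arrays differed by far less than the gap to the nearest DMSO array.

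UTP4, IMP4 and NOB1 fell by 1.44 to 1.54 times. UTP4 belongs to the subcomplex that binds the nascent transcript first. It was at 11.39, 11.27 and 11.32 in DMSO and 10.84 and 10.76 in SAHA, a log2 fold of -0.53 ± 0.06 (SE; adjusted p by limma = 0.00345), and its second probe set gave -0.56 (0.0177). It was the only called member with another probe set called the same way. IMP4, a protein of the U3 particle, was at 10.96, 10.84 and 11.04 in DMSO and 10.37 and 10.40 in SAHA, a log2 fold of -0.56 ± 0.07 (SE; 0.00571). NOB1, the nuclease that makes the final cut at the 3′ end of 18S rRNA, was at 9.24, 9.28 and 9.45 in DMSO and 8.72 and 8.68 in SAHA, a log2 fold of -0.62 ± 0.08 (SE; 0.00549). UTP20 and UTP4 kept their calls with each array left out in turn. The call of IMP4 ended without SAHA 1 (adjusted p = 0.0603), and that of NOB1 without SAHA 1 (0.0555) or SAHA 2 (0.0541).

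The other 14 genes of this group did not pass, and they pointed both ways. BYSL, bystin, which acts in 40S maturation, had the largest uncalled difference. Its arrays were at 10.18, 10.45 and 10.60 in DMSO and 10.88 and 10.89 in SAHA, a log2 fold of 0.48 ± 0.13 (SE; adjusted p by limma = 0.0586). It was called without DMSO 1 (0.36, adjusted p = 0.0491), with arrays centred on the median gene (0.0383) and without dim genes (0.0223). IMP3, WDR3 and TBL3 also had both SAHA arrays above all DMSO arrays, with log2 folds of 0.24, 0.27 and 0.28, and IMP3 was called without DMSO 3 (0.30, adjusted p = 0.0346). IMP3 and IMP4 are partners in the U3 particle, and their estimates had opposite signs.

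On the other side, NOP14 and the helicase DDX21 had both SAHA arrays below all DMSO arrays, with log2 folds of -0.27 (limma adjusted p = 0.0619) and -0.26 (0.118). NOP14 was called with arrays centred on the median gene (0.0477), and DDX21 after a further quantile normalization (0.0237). A second probe set of DDX21 gave -0.29 and was called lower (0.0371). UTP15, a partner of UTP4, was at 8.17, 8.15 and 8.16 in DMSO and 8.15 and 7.65 in SAHA, so that SAHA 2 alone was low, and it was called without SAHA 1 (-0.51, adjusted p = 0.0146). RRP9, HEATR1, RRP12, DDX10, UTP14A, WDR43 and WDR75 had log2 folds between -0.22 and 0.12. For these 7 the groups overlapped, and WDR75 was called higher without SAHA 2 (0.22, adjusted p = 0.0475).

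Of 10 measured genes of 60S assembly, 1 fell (10%, all genes 15.6%) and 0 rose (all genes 14%), with a median of -0.10. At an unadjusted p under 0.05 in limma 1 was lower and 1 higher. Counts this small, near the shares of all genes, say little about the group. NOP2, a cytosine methyltransferase of 28S rRNA, was at 9.52, 9.42 and 9.59 in DMSO and 9.20 and 9.07 in SAHA, a log2 fold of -0.38 ± 0.07 (SE; adjusted p = 0.0217). Its call ended without any array but DMSO 2 (0.0659 to 0.103). PES1 and WDR12, which with BOP1 form a complex for processing of the large subunit RNAs, gave -0.04 and -0.15. A dimmer probe set of PES1 was called lower (-0.68, adjusted p = 0.0188), as was the mean of its probe sets (-0.36, 0.0142). BOP1 had no probe set of its own, and was called lower when host-gene probe sets were read as the gene. NOP16 gave -0.22 on its brightest probe set, while 2 dimmer ones were called lower (-0.34 and -0.74). MRTO4, which resembles the stalk protein P0, and NIP7 gave -0.29 and -0.28.

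GTPBP4, a GTPase of early 60S particles, had the highest estimate of all members without being called. It was at 11.76, 11.59 and 11.39 in DMSO but at 12.69 and 11.93 in SAHA, so the SAHA arrays differed from each other by more than the DMSO arrays did. The log2 fold was 0.73 ± 0.25 (SE; limma adjusted p = 0.107). All 3 of its probe sets gave positive estimates with SAHA 1 above SAHA 2. The dimmest was at 6.83, 6.80 and 6.83 in DMSO and 8.34 and 7.79 in SAHA and was called higher (1.24 ± 0.17, SE; adjusted p = 0.0108 over all probe sets). The brightest probe set was called without SAHA 2 (1.10, adjusted p = 0.0452), with centring on ribosomal protein genes (0.0435) and without dim genes (0.0422). GNL2, another GTPase of the 60S pathway, RRS1 and RRP1B gave 0.11, 0.08 and 0.01, and GNL2 was called higher without SAHA 2 (0.21, adjusted p = 0.0302).

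**Figure D3:**
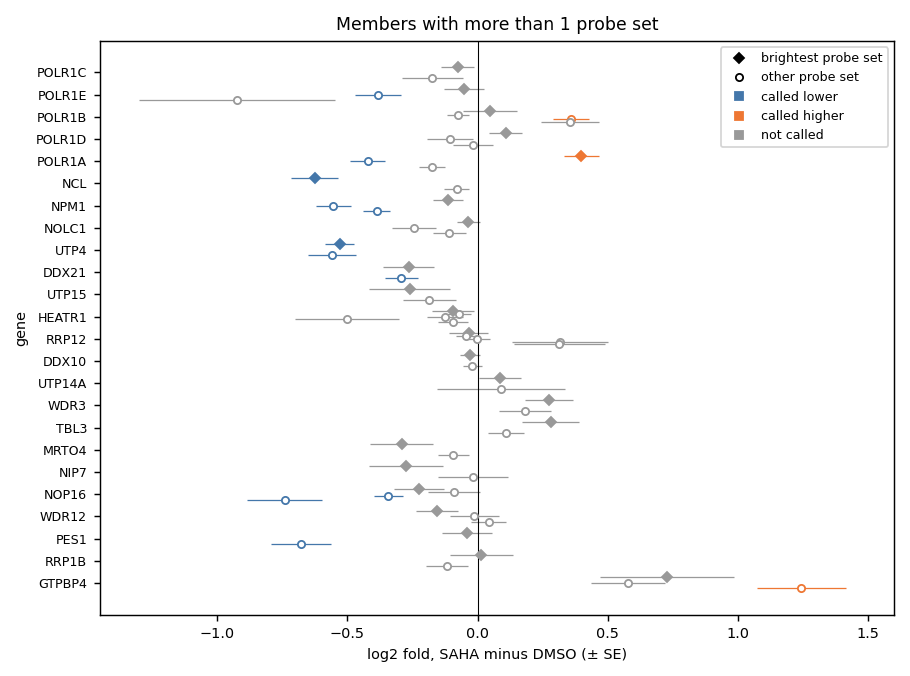
Log2 fold (SAHA minus DMSO, ± SE) of every probe set of the 24 members with more than 1, from a limma fit over all probe sets with 1 gene; filled diamonds are the brightest probe set and open circles the others, blue called lower, orange called higher and grey not called. The probe sets of POLR1A are called in opposite directions, while those of UTP4 agree.

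Probe sets limit what can be said of single members. Of the 40 measured, 24 had more than 1 probe set, and 16 had only 1. Of the 9 called members, 6 rest on a single probe set. Among uncalled members, 5 had another probe set called lower and 2 another called higher. With the probe sets of each gene averaged, 14 members were called lower and 4 higher, with a median of -0.13. Of all 19775 genes 3074 were lower and 2971 higher in that setting. With probe sets annotated to a gene and to small RNAs encoded within it also read as that gene, 43 members were measured. Of these 11 were lower and 1 higher, beside 3130 and 2779 of 19872 genes.

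Scaling bears on the counts too. RMA makes the arrays' distributions alike, which removes any shift shared by most transcripts. Between SAHA and DMSO the 24 probe sets for polyadenylated control RNAs differed by a median of 0.39 on the log2 scale. When arrays were centred on these controls, 30 of 40 members were called lower and 1 higher, beside 14548 and 1361 of 19775 genes. The median of all genes moved as well, to -0.40, against -0.44 for the members. Centring subtracts the same value from every gene of an array. The gap between the members' median and that of all genes therefore stays as with the deposited scaling by construction, and tests nothing.

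Other genes of the pathway came from lists that hold no member. Of the 122 measured outside the ribosomal proteins, 36.1% were called lower and 9.02% higher, beside 15.6% and 14% of all genes. Whether the shares of the 122 differ from those of the members or of all genes was not tested. Of 36 other small subunit factors 18 fell and 3 rose, with a median of -0.23. DIMT1, an 18S rRNA dimethyltransferase, gave -0.99 ± 0.05 (SE; limma adjusted p = 0.000651), EMG1, a pseudouridine methyltransferase, -0.89, and the kinase RIOK2 -0.84. UTP3 (0.83), ESF1 (0.56) and DDX52 (0.33) rose. The calls of DIMT1 and RIOK2 ended without shared-sequence probe sets (-0.37 and -0.26), and DDX52 turned to -0.30 there, to -0.15 with its probe sets averaged and to -0.04 on the polyadenylated controls. The lower count was 10 of 30 without shared-sequence probe sets. It was 7 to 15 with each array left out in turn (9 without DMSO 3, 11 without SAHA 1, 7 without SAHA 2), and the calls of ESF1 and DDX52 ended without SAHA 1 or SAHA 2, that of DDX52 also without each DMSO array.

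Of 45 other large subunit factors 16 fell and 2 rose, with a median of -0.19. NOL12 (-0.92), NOL9, a kinase of RNA ends (-0.67), and the helicase DDX54 (-0.63) were the lowest, and ZNF622 (0.79) and DDX24 (0.23, but -0.14 on the polyadenylated controls) rose. The lower count was 6 to 13 with each array left out (10 without DMSO 1, 6 without DMSO 3, 8 without SAHA 1, 7 without SAHA 2). The call of DDX54 was kept only without DMSO 2, and that of DDX24 only without DMSO 1.

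Among 16 other polymerase I subunits, shared subunits and initiation factors, 3 fell and 3 rose (18.8% each, all genes 15.6% and 14%). UBTF, which binds and opens the ribosomal DNA, was at 8.41, 8.19 and 8.21 in DMSO and 7.71 and 7.77 in SAHA, a log2 fold of -0.53 ± 0.08 (SE; adjusted p by limma = 0.0114). RRN3, which links the polymerase to its promoter, was at 9.09, 8.72 and 8.79 in DMSO and 8.37 and 8.16 in SAHA, a log2 fold of -0.60 ± 0.14 (SE; 0.0345). POLR1G, the partner of POLR1E, fell most (-0.67 ± 0.04, SE; adjusted p = 0.00102), while the subunit POLR1F rose (0.51), as did POLR2E (0.67) and POLR2L (0.43), which all 3 nuclear polymerases share. UBTF lost its call without SAHA 1 (adjusted p = 0.0953) or SAHA 2 (0.069), and RRN3 and POLR2E without any array but DMSO 1. POLR2L lost it without DMSO 3 (0.063) or SAHA 2 (0.0677), and on the polyadenylated controls POLR1F gave 0.13 and POLR2L 0.06.

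Of 12 genes listed as other snoRNP proteins and their assembly factors, NOP10 and SNU13 among them, 3 were called lower and 3 higher. That is 25% each, beside 15.6% and 14% of all genes. ZNHIT3 (-0.73), TCOF1, treacle (-0.60), and NUFIP1 (-0.23) fell, and ZNHIT6 (0.76), RUVBL1 (0.55) and SHQ1, a chaperone of H/ACA particles (0.44), rose. TCOF1 gave -0.10 without shared-sequence probe sets and NUFIP1 0.14 with its probe sets averaged. Calls of RUVBL1 ended without DMSO 3, SAHA 1 or SAHA 2, those of SHQ1 without these or DMSO 2, those of NUFIP1 without DMSO 1 or DMSO 2 and that of ZNHIT3 without SAHA 1. Centred on the polyadenylated controls, RUVBL1 gave 0.18 and SHQ1 0.07, both uncalled.

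The nuclear RNA exosome, which trims precursors of 5.8S rRNA, had 4 of 13 genes lower and 0 higher (limma; 5 and 3 at an unadjusted p under 0.05). Its called shares were 30.8% and 0%, beside 15.6% and 14% of all genes. EXOSC6 (-1.71 ± 0.16, SE), EXOSC8 (-1.29 ± 0.10, SE) and the nuclease EXOSC10 (-1.10 ± 0.07, SE) all had lower folds than any member but UTP20. EXOSC6 gave -1.11 with its probe sets averaged, and EXOSC10 -0.58 there and -0.06 without shared-sequence probe sets. Ribosomal protein genes had few calls with the deposited scaling, 1 of 53 lower and 0 higher (limma; 1 and 2 at an unadjusted p under 0.05). Their median was 0.02. Both SAHA arrays lay below all DMSO arrays for 10 (18.9%, all genes 26%) and above for 11 (20.8%, all genes 22.1%). On the polyadenylated controls 48 were called lower, beside 14548 of 19775 genes. The 1 gene called lower with the deposited scaling was RPLP2 (-0.46). Its call did not survive the loss of any 1 array, and the mean of its probe sets gave -0.04, while leaving out those of shared-sequence type gave 0.37. MYC itself was at 11.23, 11.45 and 11.62 in DMSO and 12.49 and 12.33 in SAHA, a log2 fold of 0.98 (adjusted p = 0.0068; 0.0749 without SAHA 1 and 0.0517 without SAHA 2).

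**Figure D4:**
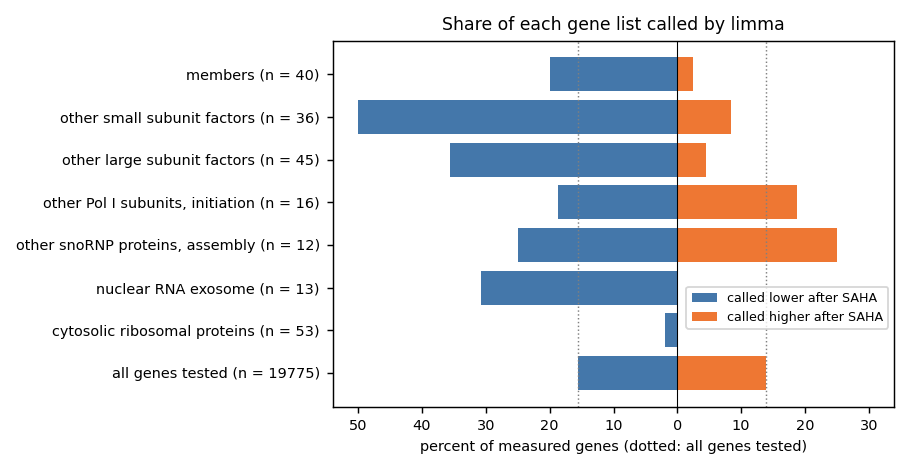
Percent of measured genes called lower (blue, to the left) and higher (orange, to the right) after SAHA by limma at adjusted p under 0.05, for the members, the other pathway lists and all genes tested; dotted lines mark all genes tested, 15.6% and 14%. The members reach 20% and 2.5%, other small subunit factors 50% and 8.33%, and ribosomal proteins 1.89% and 0%.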

How the data were processed

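Per the submitters' processing notes, the authors made the values with RMA (background correction, quantile normalization and probe set summary) in R 2.12, and the deposited table holds intensity on a linear scale (4.56 to 38935) for 54675 probe sets. The table gives no detection calls. Here log2 was taken with no further normalization. Probe sets were named through GEO's platform annotation, with 41037 of 41091 one-gene symbols updated through gene identifiers. The 1801 probe sets with several genes, the 11721 with none given and the 62 controls were left out of gene tests. A 2-group linear model (limma 3.58.1 under R 4.3.3, 3 residual and 1.62 prior degrees of freedom) gave two-sided p-values, adjusted by Benjamini-Hochberg over 19775 genes at a threshold of 0.05, and was tested on simulated data. Intervals are at 95%. Shared-sequence probe sets are those ending in _x_at or _s_at. Control probe sets had to average above 100. Promoter sequences are RefSeq's. Every member may be named; from each other list up to 3 called genes in each direction were named by largest fold, plus MYC, UBTF, RRN3, NOP10 and SNU13. The members, lists, motifs and alternatives were chosen with earlier results of these data known. Figures were drawn with matplotlib 3.10.9. The alternatives were other probe set choices, scalings, filters, weights and tests, a replicate block, and leaving out each array.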

Additional observations from a re-analysis of the deposited data

Results flagged for a closer look

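The arrays also carry control probe sets for mature ribosomal RNA, which the comparisons above do not use. A probe set at the 5′ end of 18S rRNA was at 7.52, 8.26 and 8.33 (log2 intensity) on DMSO 1 to 3 and at 9.70 and 9.59 on SAHA 1 and 2. One at the 5′ end of 28S rRNA was at 12.41, 13.19 and 13.05 in DMSO and at 14.58 and 14.64 in SAHA. All 5 rRNA probe sets that averaged above 100 in intensity were above every DMSO array on both SAHA arrays, by a median of 1.16. A dim one at the 3′ end of 28S rRNA, left out by that limit, overlapped. It was at 6.03, 6.15 and 5.98 in DMSO and at 6.08 and 6.03 in SAHA. The 24 polyadenylated control probe sets above the limit were higher as well, by a median of 0.39, and the 18 hybridization controls were not (-0.02). The ribosomal RNA signal stands out as one outside the main comparison that was above its level in the control arrays. Its part in the members' values was not tested.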

How the results depend on the processing

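The number of members called was the least stable result. Averaging each gene's probe sets gave 14 lower, 4 higher (3074 and 2971 genes) and a median of -0.13. Members called higher numbered 2 without shared-sequence probe sets (2176 of 17098 genes), after a further quantile normalization (2922 of 19775) and with centring on the median gene (2918). They numbered 3 with centring on ribosomal protein genes (2918 genes) and 5 without dim genes (2721 of 11865). Centring on the polyadenylated controls gave 30 lower, a median of -0.44, and 14548 genes lower and 1361 higher in all. The unmoderated test gave 4 and 0 members (1831 and 1538 genes), and an adjusted p under 0.01 gave 5 and 0 (1773 and 1544 genes). With the replicate block, counts were 3 and 0 (1316 and 1262 genes). Nothing states whether same-numbered arrays belong together. Their deviations correlated at 0.15 and -0.07, but such values cannot settle this. The deviations of only 2 SAHA arrays mirror each other, and DMSO 1 gave 0.15 with SAHA 1 and -0.15 with SAHA 2. With 1 array left out, members called numbered 4 to 6 lower and 0 to 3 higher, the median ran from -0.10 to -0.05, and genes numbered 1985 to 2797 lower and 1769 to 2234 higher. Where 1 SAHA array was left, it is assumed to vary like the DMSO arrays.

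Several genes changed sign, and the cause was not tested. Most were uncalled, but POLR1A, DDX52, DDX24, NUFIP1 and RPLP2 were called. With probe sets averaged POLR1D gave -0.0055, POLR1A -0.067, RRP12 0.11, RRP1B -0.051, SNU13 -0.17, DDX52 -0.15 and NUFIP1 0.14. Without shared-sequence probe sets DDX52 gave -0.30 and RPLP2 0.37. A further quantile normalization gave NOP58 -0.012, RRP1B -0.015 and NOP10 -0.030. NOP10 was -0.0040 with ribosomal protein centring and -0.0026 with array weights. On the polyadenylated controls, where the median of all genes was lower, POLR1B gave -0.32, POLR1D -0.26, NOP58 -0.32, UTP14A -0.29, WDR43 -0.26, WDR75 -0.25, IMP3 -0.13, WDR3 -0.10, TBL3 -0.092, RRP1B -0.36, RRS1 -0.29, GNL2 -0.26, NOP10 -0.36, SNU13 -0.29, DDX52 -0.044 and DDX24 -0.14. The replicate block gave POLR1E 0.012, RRP12 0.025 and RRP1B -0.057, and host-gene probe sets, an alternative chosen after seeing the data, gave RPLP2 0.19. With 1 array left out, POLR1E ran from -0.094 to 0.012, POLR1B from -0.060 to 0.16, NOP58 from -0.034 to 0.13, RRP12 from -0.079 to 0.025, PES1 from -0.13 to 0.047, RRP1B from -0.057 to 0.12 and NOP10 from -0.041 to 0.043. Of 714 values of members under alternatives, 598 kept direction and side of the threshold.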
